A study of Mus musculus with 4 samples.

Results

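Hepatocytes of 1 library of a mouse liver cancer series were divided by the genes that mark the ends of the liver lobule, and all other genes were compared between the ends. The library is the set of barcodes with suffix 1. Barcodes with at least 500 UMIs (counted RNA molecules), at least 200 genes and under 20% mitochondrial UMIs numbered 9151 of 9222. Of these, 2654 had at least 10 UMIs over Alb, Apoa1, Apoa2 and Ttr, and 2363 of them had at most 1 UMI over 11 genes of immune, endothelial and stromal cells and are called hepatocyte barcodes. The members were thus chosen by measured counts, those of the genes named here, which are given as a description only. Side A, the pericentral side, took the 388 hepatocyte barcodes with at least 2 UMIs over Glul, Oat, Cyp1a2 and Slc1a2 and none over Cyp2f2, Hal, Sds and Hsd17b13. Side B, the periportal side, took the 553 barcodes with the reverse. The 941 placed barcodes came from 38072 barcodes in the whole series.

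The series profiled RNA of single cells from mouse livers in which hepatocellular carcinoma (HCC) was induced by a gene. There was 1 sample of normal liver from week 0 (HCC-NL) and 1 of tumor each from week 4 (HCC-ES), week 8 (HCC-MS) and a last time (HCC-LS), given as week 10 in the sample label and as week 12 in the series text. The inducing gene, the cells it acts in, the strain, the sex and the age of the mice, and whether animals were pooled, were not stated in the sources used here. The 4 libraries were joined into 1 matrix, and no source used here ties suffix 1 to a sample, so nothing below is assigned to a week or to normal or tumor tissue. Cells of 1 library are not replicates, so there is no replicate check and no test. Every 95% interval covers counting error only.

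A liver lobule is a column of hepatocytes between portal tracts, where blood rich in oxygen and nutrients enters, and a central vein, where it leaves. Periportal hepatocytes carry most of gluconeogenesis, urea synthesis, the breakdown of several amino acids and the secretion of plasma proteins. Pericentral hepatocytes carry out glutamine synthesis and much of the metabolism of foreign compounds by cytochrome P450 enzymes and glutathione transferases, and Wnt signals from the endothelium of the central vein maintain much of their program.

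The placement rests on few molecules per barcode. On side A, Oat (ornithine aminotransferase) was detected in 375 barcodes, Glul (glutamine synthetase) in 188, Cyp1a2 in 87 and Slc1a2 in 12. On side B, Sds (serine dehydratase) was detected in 421, Hal (histidine ammonia-lyase) in 391, Cyp2f2 in 163 and Hsd17b13 in 117. Side A is thus mainly a class of Oat and Glul, and side B one of Sds and Hal. Just inside the threshold, 98 barcodes of side A and 241 of side B had exactly 2 UMIs of their own genes, at median depths of 1919.5 and 1632 UMIs. Just outside it, 213 barcodes had 1 UMI of side A genes only and 352 had 1 UMI of side B genes only, at median depths of 1667 and 1644.5 UMIs. The remaining hepatocyte barcodes were 161 with UMIs of both sides and 696 (29.5%) with none of the 8 genes. Side A held 16.4% (95% Clopper-Pearson interval 14.9 to 18.0) of the hepatocyte barcodes and side B 23.4% (21.7 to 25.2).

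Side A and side B differed in depth, with medians of 2354.5 and 1969 UMIs and of 992.5 and 837 genes per barcode, and held 1147709 and 1402213 UMIs in all. The barcode sequence of 326 of the 9222 barcodes also occurred under another suffix, including 16 of side A and 11 of side B. A doublet score above 0.25 was given to 567 of the 9151 barcodes, to 2 on side A and to 6 on side B, and these were kept. Among the 3210 barcodes with at least 5 UMIs of the other-cell genes, at a median of 1400.5 UMIs, 5.83% met the rule of side A and 1.28% that of side B, so placement on side A also occurs in barcodes that hold other cells. Glul did not separate hepatocytes from other cells by share: 15.5% of the other-cell barcodes and 13.5% of the hepatocyte barcodes had a UMI, or 6.01% and 6.56% after each barcode was thinned to 500 UMIs. That share of Glul stood at background, as did that of Slc1a2, at 0.997% and 0.635% of the same barcodes. For Hal the unthinned shares were 3.02% and 26.7%, and for Oat 9.16% and 25.6%. A level of at least 5 Glul UMIs occurred in 0.841% of the other-cell barcodes and in 4.19% of the hepatocyte barcodes.

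Markers of other cell types were scarce on both sides apart from those of cholangiocytes, the cells of bile ducts. The 12 sinusoidal endothelial markers summed to 24 UMIs on side A and 48 on side B, the 11 stellate cell markers to 5 and 10, the 12 markers of Kupffer cells and macrophages to 96 and 103 and the 4 platelet markers to 4 and 44. The 6 erythroid markers summed to 92 and 151 UMIs, of which Alas2 held 88 and 148, at 76.7 and 106 CPM against 10.96 CPM in the other-cell barcodes. Endothelial Wnt2 and Wnt9b were at 0 on both sides. The 8 cholangiocyte markers summed to 1852 UMIs on side A and 74 on side B, and 7 barcodes of side A with at least 5 Spp1 UMIs held most of them. Those 7 barcodes, called Spp1-rich here, carried 1518 of the 1520 Spp1 UMIs of side A, 42 Epcam UMIs and 13 Krt19 UMIs, with a median depth of 4714 UMIs, and no barcode of side B had as many Spp1 UMIs. Outside the sides, at least 5 Spp1 UMIs occurred in 19 barcodes with none of the 8 rule genes. They also occurred in 7 barcodes with 1 UMI of side A genes only. Named genes whose ratio the Spp1-rich barcodes of side A move by over 1.5 times are given with and without them. Of the hepatocyte barcodes, 60.0% held no mitochondrial UMI at all, against 1.06% of the other-cell barcodes. The 2654 barcodes with enough UMIs of hepatocyte genes were chosen by those genes, so their number is no check on the labelled liver tissue. Alb (serum albumin), one of those genes, made up 0.102% of the UMIs of side A and 0.308% of those of side B.

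Levels are given as CPM (counts per 1000000 UMIs), summed over the barcodes of a side, with the rule genes and the genes of the hepatocyte and other-cell gates left out of the genes compared and of the total. A gene with at least 100 UMIs over both sides and a CPM ratio of at least 1.5 is called higher on the side where it is more abundant, which is a threshold of size alone. Of 2517 genes with enough UMIs, 295 (11.7%) were called higher on side A and 125 (4.97%) higher on side B, 16.7% in all. The median log2 ratio of side A over side B was 0.13 over all genes compared. Without the 7 Spp1-rich barcodes, 272 of 2451 genes (11.1%) were higher on side A and 137 (5.59%) on side B, and 247 of the 295 and 119 of the 125 calls remained.

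**Figure D1:**
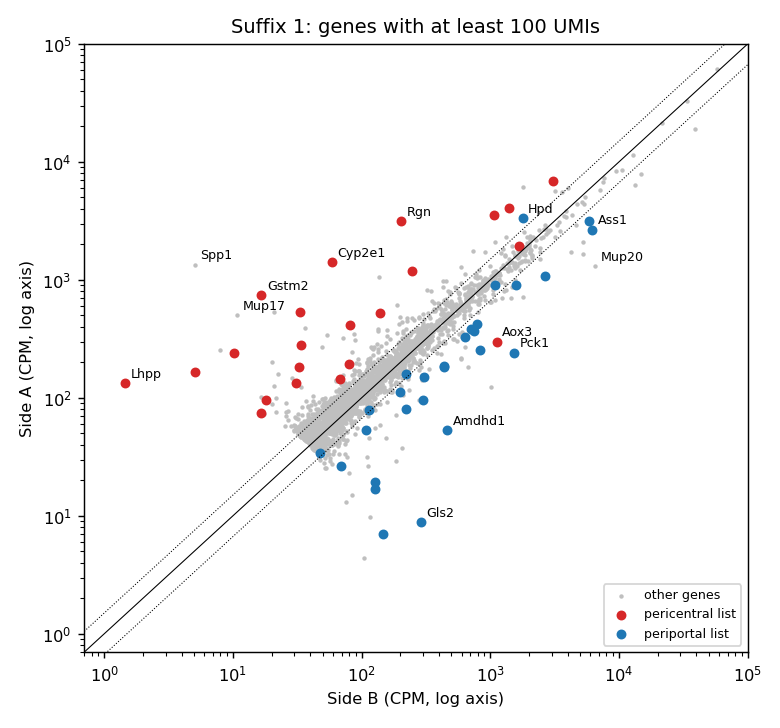
Level of each of the 2517 genes on side B (x axis) and side A (y axis), both in CPM on log scales, with the pericentral list in red, the periportal list in blue, equal levels as a solid line and a ratio of 1.5 either way as dotted lines. Pericentral members such as Cyp2e1 (1411 CPM on side A and 58.6 CPM on side B) lie above the diagonal and periportal members such as Gls2 (8.82 and 289 CPM) below it.

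The rule did not use the 40 genes of the pericentral list. Of 22 members with enough UMIs, 20 were higher on side A, beside 11.7% of all genes compared. On side B, 1 (Aox3) was higher, beside 4.97%, and 1 (Mgst1) passed neither way. The median log2 ratio was 2.31 against 0.13 over all genes compared. The counts were 20 and 1 without the Spp1-rich barcodes as well. Of the 40 genes of the periportal list, 28 had enough UMIs, and 23 of these were higher on side B, beside 4.97% of all genes compared. On side A, 1 (Hpd) was higher, beside 11.7%. Another 4 (Tdo2, Apoa4, Trf and Scd1) passed neither way, and the median log2 ratio of the list was -1.12. The 18 pericentral members below 100 UMIs include Cyp7a1, Axin2, Lgr5, Tbx3 and Avpr1a, and the 12 periportal ones include G6pc, Igfbp1, Cdh1 and Hsd17b6, so nothing is stated of their direction.

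**Figure D2:**
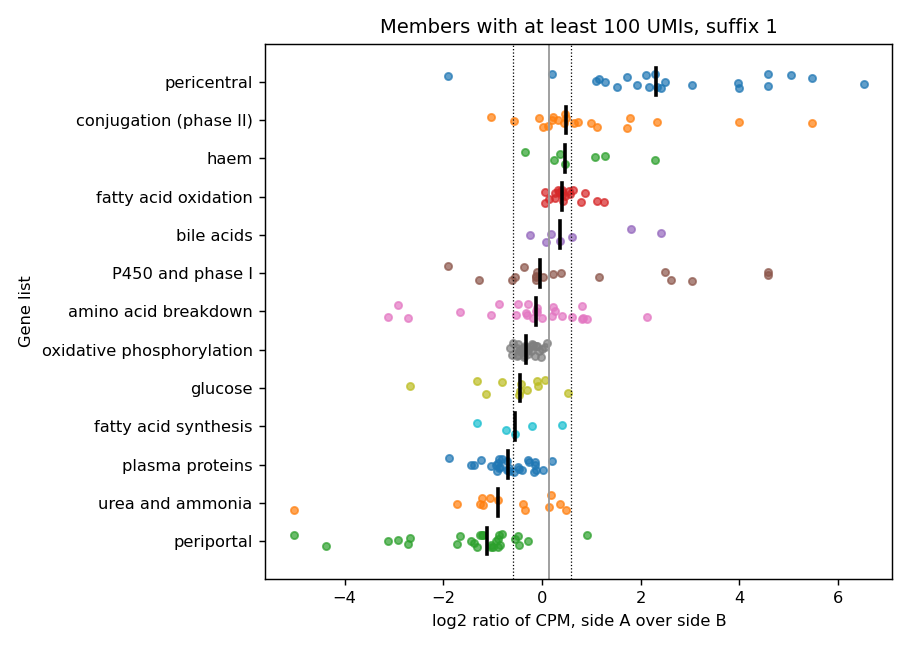
Log2 ratio of side A over side B (x axis) for each member with at least 100 UMIs of the gene lists (y axis), 1 point a gene, with a black bar at the median of each list, a grey line at the median of all genes compared and dotted lines at a ratio of 1.5 either way. Colours only separate the lists. The pericentral list has a median of 2.31 and the periportal list a median of -1.12.

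The pericentral list includes cytochrome P450 enzymes, which oxidise drugs and other foreign compounds. Cyp2e1 (ENSMUSG00000025479), which oxidises ethanol and paracetamol, had 1599 UMIs on side A and 81 on side B. Its level was 1411 CPM (1343 to 1482) on side A and 58.6 CPM (46.6 to 72.9) on side B, a ratio of 24.1 (19.2 to 30.5). It was detected in 84.5% of the side A barcodes and 8.86% of the side B barcodes, or in 44.8% and 2.53% after thinning to 500 UMIs. The level on side B was close to the 47.7 CPM of the other-cell barcodes, so Cyp2e1 was nearly at background there. Cyp2c29 was 23.8 times higher on side A (13.9 to 44.0), Cyp2c50 8.25 times (6.06 to 11.5), Cyp2c68 6.15 times (3.90 to 10.1) and Cyp3a11 5.66 times (4.08 to 8.00). For Cyp3a11, 10 barcodes held 60.8% of the side A UMIs. The genes of the Cyp2c cluster are close copies of each other, and the rule by which reads were divided between them was not among the sources used here. Among 18 measured P450 and other first-phase enzymes, 6 were higher on side A and 3 on side B, beside 11.7% and 4.97% of all genes compared, with a median log2 ratio of -0.04. Those 3 are Aox3 (aldehyde oxidase), 3.76 times higher on side B, and Cyp2a12 and Cyp3a25, which were 2.42 and 1.52 times higher there and are named because the count is small, after their values were seen. Nr1i3, the nuclear receptor that induces several P450 genes, was at 75.0 CPM on side A and 16.7 CPM on side B.

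Of the 20 measured second-phase genes, which include the glutathione transferases that couple foreign compounds to glutathione, 9 were higher on side A and 1 on side B, beside 11.7% and 4.97% of all genes compared. Gstm2 (ENSMUSG00000040562) was at 740 CPM (691 to 792) on side A and 16.7 CPM (10.6 to 25.0) on side B, a ratio of 44.5 (29.4 to 70.5). Its side B level was below the 69.0 CPM of the other-cell barcodes. Gstm3 was 16.0 times higher on side A (11.8 to 22.1), Gstm6 5.04 times, Gsta3 3.44 times and Gstm1 3.29 times. These transferases are paralogs of similar sequence, and the same limit on counting holds for them. Gstp1, of another class, went the other way, with 19013 CPM on side A and 39105 CPM on side B, 2.06 times higher on side B. It is named after its values were seen, as the only second-phase gene called on side B, and its near copy Gstp2 could share its reads.

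Other pericentral members have roles outside detoxification. Rgn (regucalcin, which acts in vitamin C synthesis) was at 3162 CPM (3060 to 3268) on side A and 202 CPM (179 to 227) on side B, 15.7 times higher, and was detected in 96.9% and 22.1% of the barcodes, or 76.3% and 9.40% after thinning. Aldh3a2, which oxidises fatty aldehydes, was at 167 and 5.07 CPM, and Aldh1a1, which makes retinoic acid, at 526 and 139 CPM. Slco1b2, which takes up bile acids from blood, was 5.31 times higher on side A (3.42 to 8.57). Of its side A UMIs, 56.0% came from 10 barcodes. Blvrb (biliverdin reductase B) was 4.89 times higher, Cpox, of haem synthesis, 2.42 times, Pon1 (paraoxonase) 2.13 times, Akr1c6 (a hydroxysteroid dehydrogenase) 2.88 times and Cyb5a (cytochrome b5) 2.23 times. Ang, a secreted ribonuclease whose gene overlaps Rnase4, was 4.34 times higher on side A (3.07 to 6.23).

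Lhpp, a histidine phosphatase gene, had the largest ratio of the list. It had 151 UMIs on side A and 2 on side B, or 133 CPM (113 to 156) and 1.45 CPM (0.175 to 5.23), a ratio of 92.0 (25.0 to 767). The interval is wide because only 2 UMIs stand on side B, and the other-cell barcodes were at 4.52 CPM. Lhpp lies near the rule gene Oat, with 1 protein-coding gene between them in the RefSeq table used here, and whether the counts of both share transcripts was not tested.

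Beyond the lists, the 10 largest ratios on side A with the same direction in barcodes below and above the median depth included 3 more genes. Fitm1, which acts in lipid droplet formation, was at 253 CPM (225 to 284) on side A and 7.96 CPM (3.98 to 14.3) on side B, a ratio of 31.8. Mup17 was at 500 and 10.9 CPM and Mup15 at 537 and 21.0 CPM. Both are major urinary proteins, carriers of pheromones, and belong to a family of near-identical copies. Of 15 targets of Wnt signalling only Prodh (proline dehydrogenase) had enough UMIs, and it was 4.40 times higher on side A (2.87 to 6.94).

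Among the genes compared, those of glutamine and ammonia handling were called on side B only. Glul, which makes glutamine, places barcodes on side A by the rule and was not compared. Gls2 (ENSMUSG00000044005), the liver glutaminase that releases ammonia from glutamine, had 10 UMIs on side A and 399 on side B. Its level was 8.82 CPM (4.23 to 16.2) on side A and 289 CPM (261 to 319) on side B, 32.7 times higher on side B (17.6 to 68.8), and it was detected in 2.32% and 42.5% of the barcodes, or 1.03% and 13.4% after thinning. Its side A level was below the 13.4 CPM of the other-cell barcodes. The enzymes of the urea cycle, which turns ammonia into urea, were higher on side B by smaller ratios. Arg1 was at 255 CPM on side A and 837 CPM on side B, 3.28 times higher on side B (2.88 to 3.75). Cps1 was 2.38 times higher on side B (2.03 to 2.80), Ass1 2.32 times (2.23 to 2.42), Asl 2.31 times (1.97 to 2.71) and Otc 1.85 times (1.66 to 2.06). Over 13 measured genes of the urea and ammonia list, 7 were higher on side B, beside 4.97% of all genes compared, and none on side A, with a median log2 ratio of -0.89.

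The breakdown of amino acids was divided between the sides. Amdhd1 and Uroc1, which act in histidine breakdown after the rule gene Hal, were 8.77 times (6.72 to 11.6) and 7.60 times (4.72 to 12.9) higher on side B, and Ftcd, of the same pathway, 3.15 times. Gldc, of glycine cleavage, was 6.60 times higher on side B (4.23 to 10.8) and Tat (tyrosine aminotransferase) 2.05 times. Hpd, which acts in the same tyrosine pathway after Tat, went the other way, with 3351 CPM on side A and 1784 CPM on side B. Of 26 measured genes of this list, 6 were higher on side A, including Prodh and Hpd, and 6 on side B. The side A share is 6 of 26, beside 11.7% of all genes compared, and the side B share 6 of 26, beside 4.97%.

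Among genes of glucose metabolism, Pck1, the committed enzyme of gluconeogenesis, was at 241 CPM (213 to 271) on side A and 1543 CPM (1478 to 1610) on side B. It was 6.41 times higher on side B (5.64 to 7.29) and was detected in 42.3% and 85.2% of the barcodes, or 12.6% and 45.03% after thinning. Fbp1, of the same pathway, was 2.48 times higher on side B (2.32 to 2.65). Pklr, of glycolysis, was 2.20 times higher on side B, but its log2 ratio was 0.10 after thinning to 500 UMIs and 0.0873 in suffix 3. In all, 4 of 12 measured glucose genes were higher on side B, beside 4.97% of all genes compared, and none on side A. Acly, which supplies acetyl-CoA for lipid synthesis, and Thrsp, a lipogenic gene, were 2.48 and 1.67 times higher on side B. They were the only calls among 5 measured genes of fatty acid synthesis, beside 4.97% of all genes compared. In suffix 3 the list went the other way, with 6 of 9 measured genes higher on side A, beside 29% of all genes compared there. Only 1 was higher on side B, beside 7.08%, and the median log2 ratio was 0.79. Of the genes of fatty acid oxidation and ketone formation, 5 of 19 measured were higher on side A, beside 11.7% of all genes compared, and none on side B. Without the Spp1-rich barcodes the count was 6. Acaa1b was at 1744 and 736 CPM, Bdh1 at 273 and 126 CPM and Ehhadh at 69.7 and 38.4 CPM, but the log2 ratio of Ehhadh was -0.90 after thinning to 500 UMIs.

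Secreted plasma proteins were higher on side B in 16 of 28 measured genes, beside 4.97% of all genes compared, and in none on side A. Without the Spp1-rich barcodes the count was 17. Hpx (haemopexin) was at 184 CPM on side A and 676 CPM on side B, and Fga, a fibrinogen chain, at 81.2 and 220 CPM. Kng1 (kininogen) was at 71.5 and 187 CPM, Apom at 59.1 and 140 CPM and Apoc3 at 3186 and 5904 CPM. Igf1, the growth factor that the liver releases into blood, was 1.92 times higher on side B (1.70 to 2.17) and Pigr, which carries immunoglobulin A into bile, 2.60 times. The Pigr level of side A rests largely on the Spp1-rich barcodes: it was 26.5 CPM with them and 10.2 CPM without them, which takes the log2 ratio from -1.38 to -2.76. The acute phase genes Orm1 and Hp were 2.79 and 2.33 times higher on side B. Of the complement genes, C9 was 2.95 times and C8g 1.61 times higher on side B, and C6 was 2.26 times higher on side A.

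Side B also led for genes outside the pathways above. Cryl1, of L-gulonate metabolism, had 5 UMIs on side A and 145 on side B, and the periportal list member Etnppl, which cleaves phosphoethanolamine, 8 and 202 UMIs. Their ratios were 23.8 (9.97 to 74.4) and 20.7 (10.3 to 48.6). Ctnnbip1, an inhibitor of the binding of beta-catenin to TCF factors, was at 9.71 CPM on side A and 117 CPM on side B, 12.1 times higher on side B (6.58 to 24.7). Serpina12 (vaspin) was 8.19 times higher on side B and Sfxn1, a serine carrier of mitochondria, 6.37 times. Mup20 was at 1305 CPM on side A and 6522 CPM on side B, the opposite direction to Mup17 and Mup15, and Mup21 was 5.40 times higher on side B. Of 12 measured genes known for higher levels in male livers, 3 were higher on side A (Mup11, Elovl3 and C6) and 6 on side B, beside 11.7% and 4.97% of all genes compared.

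Members that did not follow their list are few. Aox3, of the pericentral list, was at 300 CPM (269 to 334) on side A and 1127 CPM (1071 to 1184) on side B. Mgst1 differed by a ratio of 1.15 (1.08 to 1.22), inside the size threshold. Tdo2 was 1.21 times (1.12 to 1.31), Apoa4 1.39 times (0.921 to 2.12), Trf 1.41 times (1.17 to 1.70) and Scd1 1.47 times (1.12 to 1.92) higher on side B by value, all under 1.5. Only for Apoa4 did the interval include a ratio of 1.

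The sequence before the start site is shown for 2 genes of each side, picked from their lists after the values were seen, from the RefSeq promoter table for build GRCm38.p6 (250 bases upstream, read 5' to 3' on the gene's strand). They are Cyp2e1 (chr7:140763569-140763818, plus strand) and Gstm2 (chr3:107986421-107986670, minus strand) of side A, and Amdhd1 (chr10:93540034-93540283, minus strand) and Pck1 (chr2:173152823-173153072, plus strand) of side B. Capitals mark a match to the TCF/LEF core CTTTGA, bound by the factors that act with beta-catenin, or to the cAMP response core ACGTCA, each searched on both strands.
Cyp2e1: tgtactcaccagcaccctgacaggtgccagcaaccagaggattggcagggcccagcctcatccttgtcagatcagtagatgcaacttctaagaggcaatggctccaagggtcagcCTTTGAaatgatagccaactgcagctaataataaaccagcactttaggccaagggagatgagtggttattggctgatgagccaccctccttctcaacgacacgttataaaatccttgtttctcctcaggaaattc
Gstm2: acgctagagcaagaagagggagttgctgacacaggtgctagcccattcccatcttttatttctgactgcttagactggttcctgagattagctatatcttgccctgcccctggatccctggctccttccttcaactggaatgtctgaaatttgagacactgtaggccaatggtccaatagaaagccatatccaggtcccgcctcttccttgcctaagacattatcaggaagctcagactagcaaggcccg
Amdhd1: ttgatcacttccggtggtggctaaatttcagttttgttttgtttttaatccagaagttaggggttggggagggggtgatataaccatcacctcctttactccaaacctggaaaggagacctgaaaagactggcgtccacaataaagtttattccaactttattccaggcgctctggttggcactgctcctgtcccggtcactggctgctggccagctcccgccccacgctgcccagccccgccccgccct
Pck1: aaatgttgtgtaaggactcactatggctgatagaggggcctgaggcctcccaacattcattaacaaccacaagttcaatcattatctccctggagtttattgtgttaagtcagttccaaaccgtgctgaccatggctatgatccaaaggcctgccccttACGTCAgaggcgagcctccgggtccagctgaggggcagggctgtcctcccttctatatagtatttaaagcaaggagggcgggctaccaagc
Cyp2e1 holds 1 TCF/LEF core and Pck1 1 cAMP response core, and no match to either was found in the windows of Gstm2 and Amdhd1. Over whole sets the shares of the TCF/LEF core were close to background. The TCF/LEF core was found in 17.8% of 230 promoters of genes higher on side A, 18.1% of 94 of genes higher on side B, 14.5% of 2021 of all genes compared and 15.8% of 27025 in the table. The cAMP response core was found in 9.57%, 6.38%, 11.7% and 7.29% of the same sets. Its side B share, from 6 promoters, was below that of all genes compared and near that of the table. A match is a description of letters, not a bound site.

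In most named genes, barcodes that fell on neither side had levels between those of the sides. Of the 47 genes higher on side A that the naming rule selected, 42 had a level between those of side A and side B in the 696 barcodes with none of the rule genes, as did 45 of 45 such genes higher on side B. These genes were called by their ratio between the same sides, which favours a level between them. The share over all genes compared was not computed. In the 161 barcodes with UMIs of both sides the counts were 41 of 47 and 43 of 45. They were 37 of 47 and 40 of 45 in the barcodes with 1 UMI of side A genes, and 33 of 47 and 43 of 45 in those with 1 UMI of side B genes. Cyp2e1 stood at 1411 CPM on side A, at 693 CPM in barcodes with 1 UMI of side A genes, at 488 CPM in those with none, at 156 CPM in those with 1 UMI of side B genes and at 58.6 CPM on side B. Ass1 took the opposite order, with 2662, 4226, 4658, 5829 and 6187 CPM. Neighbouring levels in this order differed by more than their counting intervals for both genes. The barcodes with UMIs of both sides are not in it. Cyp2e1 was at 732 CPM (665 to 805) there, which overlaps its level in barcodes with 1 UMI of side A genes (620 to 772). Ass1 was at 5236 CPM (5051 to 5425) there, above its level in barcodes with none. Hamp, the iron hormone hepcidin, had no such order: it was 560 CPM on side A and 502 CPM on side B, and higher in every class between them, at 955 CPM (869 to 1046) with 1 UMI of side A genes, 1073 CPM (1017 to 1132) with none, 817 CPM (745 to 894) with both and 641 CPM (580 to 706) with 1 UMI of side B genes. Mup3, the other measured gene of the midzone list, was 3.18 times higher on side B. These classes also differed in depth, from a median of 1574 UMIs with none of the rule genes to 2697 UMIs with both, and the part of depth in the order was not tested. At least 5 Spp1 UMIs were held by 19 barcodes with none of the rule genes and by 7 with 1 UMI of side A genes. Levels of these classes without such barcodes were not computed.

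**Figure D3:**
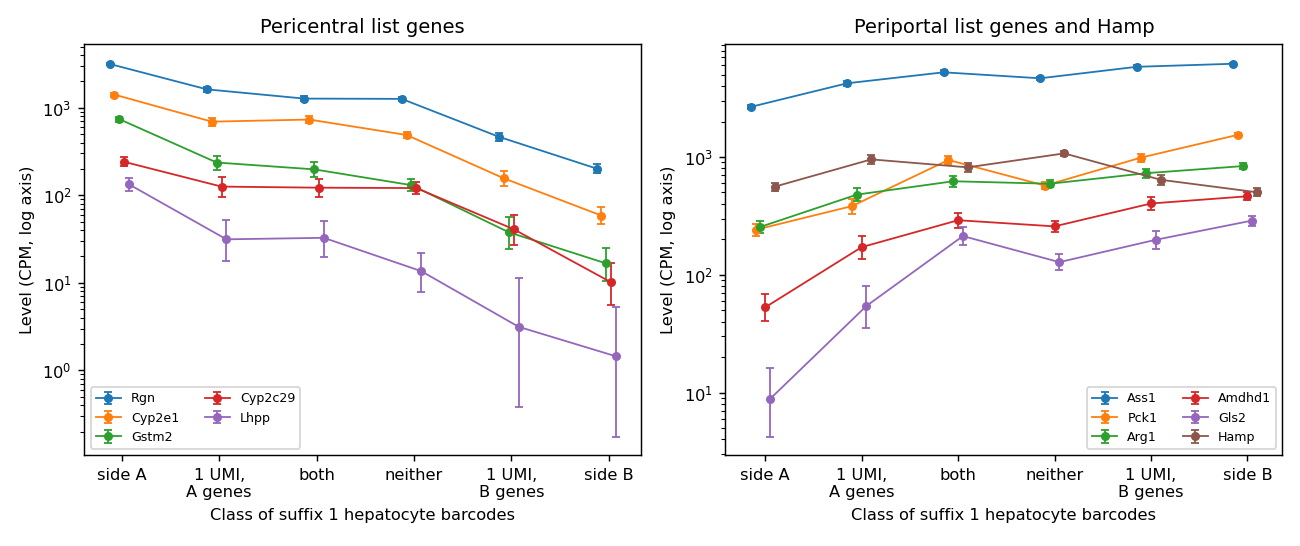
Level in CPM (y axis, log scale) of selected genes in the 6 classes of hepatocyte barcodes (x axis), as points joined by lines for reading only, with 95% Poisson intervals for counting error. Cyp2e1 goes from 1411 CPM on side A to 58.6 CPM on side B, Ass1 goes from 2662 to 6187 CPM, and Hamp is highest in between, at 1073 CPM in barcodes with none of the rule genes.

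Side A itself was not uniform in Glul. It held 90 barcodes with at least 5 Glul UMIs, 98 with 1 to 4 and 200 with none, a division chosen after the data were seen and given as a description. Their median depths were 2411.5, 2445 and 2251 UMIs. Urea cycle genes were lowest where Glul was highest: Ass1 was at 932 CPM (822 to 1052), 2486 CPM (2315 to 2666) and 3670 CPM (3510 to 3836) in that order. Arg1 was at 56.9, 207 and 387 CPM and Cps1 at 39.1, 165 and 272 CPM. Hamp followed the same order, at 142, 467 and 833 CPM. Cyp2e1 was 1959 CPM (1799 to 2130) with at least 5 Glul UMIs and lower, at overlapping levels, in the other grades, 1217 CPM (1099 to 1346) and 1237 CPM (1145 to 1335). Cyp3a11 was at 462, 108 and 83.7 CPM, Gstm3 at 1035, 350 and 376 CPM, Lhpp at 288, 69.9 and 89.3 CPM and Slco1b2 at 210, 73.1 and 50.2 CPM. Gls2 was low in all grades, at 10.7, 12.7 and 5.58 CPM. Against the order of the urea cycle genes, some periportal members were highest with the most Glul. Among them were Trf (345, 143 and 68.8 CPM), Apoa4 (128, 3.18 and 3.72 CPM) and Fga (121, 98.5 and 50.2 CPM). Fgb (217, 130 and 126 CPM), Vtn (156, 130 and 76.3 CPM) and Apof (92.5, 50.9 and 35.3 CPM) had the same order. Apoc3 and Hpd were also highest there by value, and the other measured members of the periportal list were not. Few barcodes carry the levels of Apoa4 and Trf, since all 39 Apoa4 UMIs of side A came from 5 barcodes and 63.7% of its Trf UMIs from 10. For Fga and Fgb, 10 barcodes held 43.5% and 40% of the side A UMIs. The same limit holds for Cyp3a11 and Slco1b2, with 60.8% and 56.0% in 10 barcodes. For Lhpp and Gstm3 the shares were 25.8% and 21.7%. Of the 7 Spp1-rich barcodes, 6 had 1 to 4 Glul UMIs and 1 had none.

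**Figure D4:**
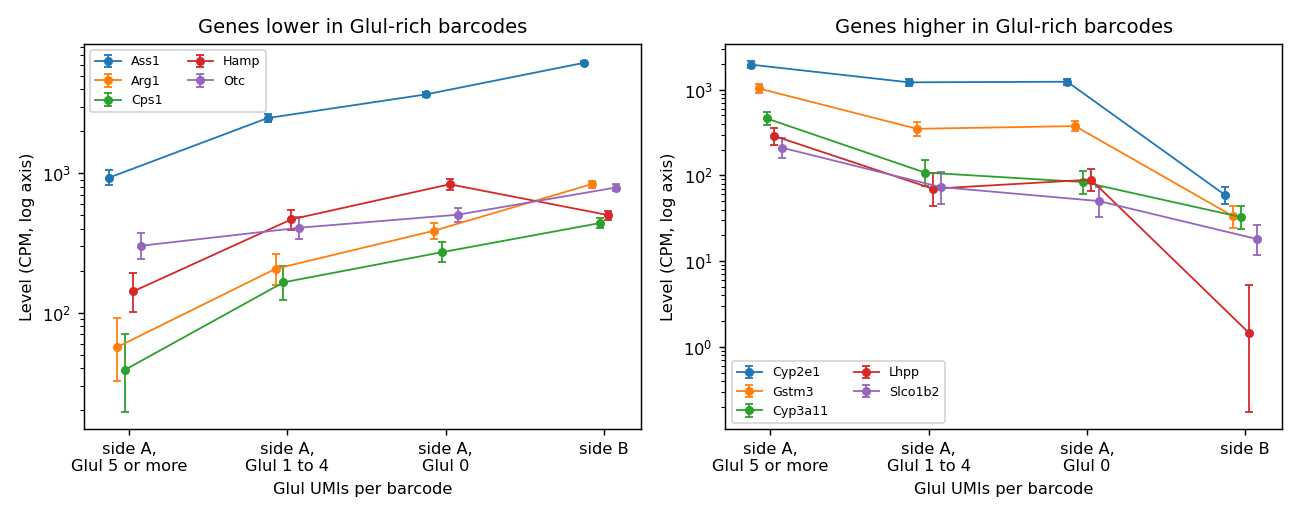
Level in CPM (y axis, log scale) of selected genes in side A barcodes with at least 5, 1 to 4 and 0 Glul UMIs (90, 98 and 200 barcodes) and in side B barcodes (x axis), joined by lines for reading only, with 95% Poisson intervals for counting error. From the most to no Glul within side A, Ass1 goes from 932 to 3670 CPM and Cyp3a11 from 462 to 83.7 CPM.

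Some calls on side A rest on the 7 Spp1-rich barcodes. Spp1 (osteopontin) was at 1341 CPM on side A and 5.07 CPM on side B, and its log2 ratio was -1.46 without them. Clu (clusterin), with 92.3% of its side A UMIs in them, had a log2 ratio of 2.95 with them and -0.69 without them, and Tm4sf4, with 93.9%, 2.81 and -1.14. Cp (ceruloplasmin) went from 1.80 to -0.39. In contrast, the 7 barcodes carried 0.375% of the Cyp2e1 UMIs and 0.335% of the Rgn UMIs of side A. The 12 listed genes of the mitochondrial genome were uneven as well. All 10 measured ones were called on side A, beside 11.7% of all genes compared. Without the Spp1-rich barcodes 2 were called there, beside 11.1%, and the log2 ratio of mt-Co1 went from 1.22 to 0.54. The 14 barcodes of side A with at least 1% mitochondrial UMIs held 82.0% of its mitochondrial UMIs, and the 7 such barcodes of side B 69.0%. Nuclear genes of oxidative phosphorylation went the other way by value, with a median log2 ratio of -0.34 over 30 genes. Only 3 of the 30 (Uqcr10, Uqcrh and Ndufa13) were called on side B, beside 4.97% of all genes compared, and none on side A.

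The same rule was applied to the other suffixes. Suffixes 2 and 4 had 12 and 4 barcodes on side B, against 2750 and 4453 on side A, and with fewer than 20 barcodes on a side no ratio was computed. Suffix 3 had 1138 barcodes on side A and 607 on side B of 4182 hepatocyte barcodes, with median depths of 1818.5 and 3554 UMIs, the opposite order of depth to suffix 1. In suffix 3, 20.8% of the other-cell barcodes met the side A rule, near the 27.2% of the hepatocyte barcodes, whereas 0.905% met the side B rule, against 14.5%. The call threshold was passed there by 1329 of 4578 genes on side A (29%) and by 324 on side B (7.08%), 36.1% in all.

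Most calls of suffix 1 had the same sign in suffix 3, and fewer passed the threshold the same way there. The same-sign share over all genes was not computed, and the median log2 ratio in suffix 3 was 0.25. Of the 295 genes called on side A, 292 had enough UMIs in suffix 3, 256 (87.7%) had the same sign and 140 (47.9%) passed the threshold the same way, beside 18.2% of all genes measured in both, and 0 passed it the opposite way. Of the 125 genes called on side B, 124 had enough UMIs, 109 (87.9%) had the same sign, 78 (62.9%) passed the same way, beside 8.69% of all genes, and 4 passed the opposite way. The shared genes were 30.6% and 35.8% of the calls of suffix 3 among genes measured in both. Of the pericentral list, 28 of 32 measured members were higher on side A in suffix 3 and 1 on side B. Of the periportal list, 22 of 32 were higher on side B and 3 on side A, including Apoa4 and Scd1. The shares over all genes compared there were 29% on side A and 7.08% on side B. Cyp2e1 was at 1497 and 62.5 CPM there, close to its levels in suffix 1. Gls2 was at 19.9 and 233 CPM, Pck1 at 352 and 1948 CPM and Ctnnbip1 at 6.94 and 72.1 CPM. Aox3 was again higher on side B, at 131 and 499 CPM. Hpd, with 943 and 956 CPM, and Mup11, with 425 and 390 CPM, did not show in suffix 3 the difference seen in suffix 1.

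**Figure D5:**
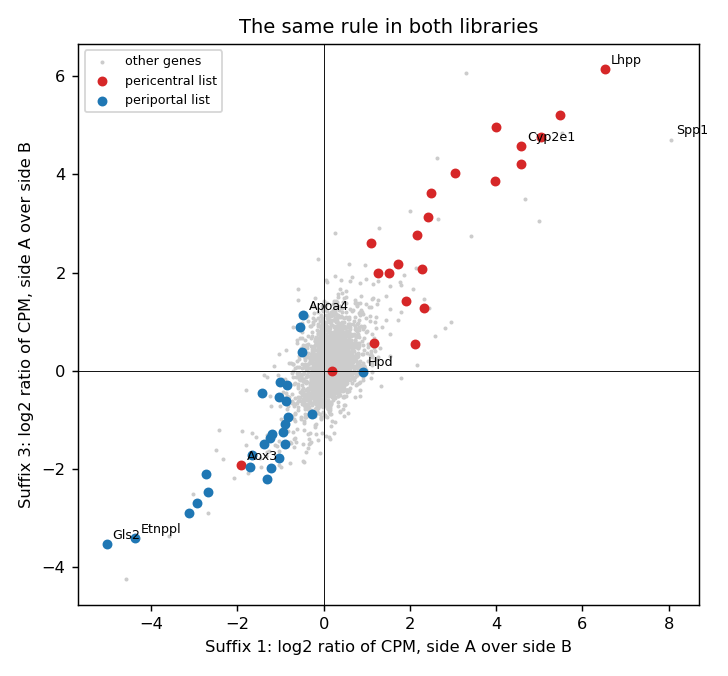
Log2 ratio of side A over side B in suffix 1 (x axis) and in suffix 3 (y axis) for the 2508 genes with enough UMIs in both, 1 point a gene, with the pericentral list in red and the periportal list in blue. Cyp2e1 lies at 4.59 and 4.58, Gls2 at -5.03 and -3.55, and Hpd at 0.91 and -0.02.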

How the data were processed

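Mouse single-cell RNA was sequenced from digested livers after lysis of red blood cells, with a 10x Genomics 3' kit of version 3, per the labels' protocols. The authors deposited 1 matrix of UMI counts, made with Cell Ranger 6.0.1 per the file headers. The genome build is mm9 per the submitters' processing notes, and its gene annotation was not stated in the sources used here. Cells were joined over 4 libraries, named here by barcode suffix. All samples' columns were used (0 left out), and 30934 of 31053 gene IDs matched the reference table.

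Counts were summed per side and given as CPM. CPM have exact Poisson, shares exact Clopper-Pearson and ratios exact conditional binomial 95% intervals, computed with Python 3.11.15, numpy 2.4.6, scipy 1.17.1 and pandas 2.3.3. Scrublet (scanpy 1.11.5) scored doublets with the expected rate set to 0.08. The comparison was tested on simulated data. No test between groups was made, since the design has 1 library a group.

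The members and gene lists were chosen with earlier results of these data known. Genes named are all pericentral, periportal and midzone members with at least 100 UMIs, up to 5 of each other list with the largest ratios past 1.5, and the 10 largest ratios in each direction with the same direction below and above the median depth. Some genes that this rule selects are not reported here. Alternatives changed the depth, mitochondrial, other-cell and hepatocyte limits, the side rule, each rule gene, the thinning, the doublets, the CPM scale, the fold, the UMI minimum per gene and the library, and 3 were added after the data were seen. Digestion and capture can favour some hepatocytes, so shares of the sides are shares of barcodes.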

Additional observations from a re-analysis of the deposited data

How the results depend on the processing

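No paired analysis was possible because each group is 1 sample and no ratio here compares samples. With 295 and 125 calls on sides A and B, and 20 and 23 in the pericentral and periportal lists, the settings that moved a count by over 1.5 times were these. With at least 50 UMIs of hepatocyte genes, which left 27 and 67 barcodes, side A had 107 calls and the pericentral list 11. Thinning to 500 UMIs before the rule left 228 genes with enough UMIs, with 32 and 29 calls and 6 and 5 in the lists. A 2-fold threshold gave 91 and 53 calls, a minimum of 50 UMIs per gene 576 and 208, and one of 200 UMIs 157 and 80. Barcodes below the median depth gave 119 and 71 calls and 10 in the pericentral list, and suffix 3 gave 1329 and 324. The share of calls on side A, 70.2%, was 50.5% with at least 50 UMIs of hepatocyte genes, 52.5% after thinning, 62.6% below the median depth and 80.4% in suffix 3.

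Of 96 genes followed singly, 90 were called, and only changes of sign in called genes were counted. Among these, 12 changed sign in at least 1 of 26 alternatives within suffix 1, and the cause was not tested. After thinning, log2 ratios were -0.48 for Clu, -0.90 for Tm4sf4, -0.31 for mt-Co1, -0.80 for mt-Co3, -0.90 for Ehhadh, -0.38 for mt-Nd1, 0.33 for Apof and 0.10 for Pklr. Below the median depth they were -0.62 for Spp1, -1.18 for Clu, -1.36 for Tm4sf4, -0.62 for Cp, -0.30 for mt-Co1, -0.72 for mt-Co2, -1.36 for mt-Co3 and -0.13 for mt-Nd1. Without the Spp1-rich barcodes, a setting chosen after the data were seen like the next 2, they were -1.46 for Spp1, -0.69 for Clu, -1.14 for Tm4sf4 and -0.39 for Cp. Under 1% mitochondrial UMIs they were -0.00380 for Clu, -0.37 for Tm4sf4 and -0.86 for Cp. With side A limited to at least 5 Glul UMIs they were -0.51 for Spp1 and -1.07 for Tm4sf4. Insig1 was at 0.10 with at least 50 UMIs of hepatocyte genes. In suffix 3, the called genes Hpd and Pklr were at -0.0189 and 0.0873. Genes without a call in suffix 1 changed sign there too: Apoa4 was at 1.13, Scd1 at 0.89, Trf at 0.37 and Mgst1 at -0.0134. Hamp was at -0.80 there, with 2226 CPM on side A and 3875 CPM on side B, past the threshold on side B. Suffixes 2 and 4 were not run as alternatives because side B had 12 and 4 barcodes. Genes under 100 UMIs over both sides were not compared, so depth limits what can be stated of them.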
